A study of Mus musculus with 38 samples.

Results

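The genes described here encode the enzymes that attach glucuronate, glutathione or sulfate to drugs, steroids and reactive metabolites: the UDP-glucuronosyltransferases (UGT), the glutathione transferases (GST) and the sulfotransferases (SULT). They were taken by gene symbol (Ugt1 to Ugt3, the cytosolic Gst classes, Mgst and Sult1 to Sult6), from probes that carry exactly 1 symbol, with the probe of highest mean over all arrays kept for each gene. This gave 44 genes of the 18820 with such a probe, namely 9 UGT genes (8 of the Ugt2 family and Ugt3a1), 20 GST genes and 15 SULT genes. Another 15 probes that name a gene of these families also name other genes, and were left out. No Ugt1a gene had a probe with a single symbol, and the Ugt1a genes were not analysed here.

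The tissues were liver from 9 haloperidol and 9 placebo C57BL/6J mice and whole brain from 10 haloperidol and 10 placebo C57BL/6J mice, an inbred laboratory strain. The drug was given for 30 days from slow-release pellets, and the stock had been bred at UNC within a few generations of Jackson Laboratory founders. Neither sex nor age is in the labels, and each array is the tissue of 1 mouse. Arrays are named below by the digit and letter in their titles, such as 4T. Of these tags 18 occur in both tissues, each with the same treatment in both. The labels do not say whether a shared tag marks 1 mouse. Values are log2 expression values made by the authors with RMA, and every change is haloperidol minus placebo on that scale, and values of different genes are not set against each other.

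Haloperidol, a butyrophenone antipsychotic that blocks dopamine D2 receptors, is cleared mainly by the liver, and in humans glucuronidation of the drug and carbonyl reduction to reduced haloperidol are main routes. UGTs sit in the endoplasmic reticulum and use UDP-glucuronate, cytosolic and membrane GSTs use glutathione, and cytosolic SULTs use the activated sulfate donor PAPS. In mice the Ugt2 genes lie together on chromosome 5 and the Gstm genes on chromosome 3. Brain holds mainly GSTs, which also handle products of lipid peroxidation. Many GST genes are known targets of the transcription factor NRF2 (Nfe2l2), which binds antioxidant response elements.

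Promoter sequences are shown for the 3 brain genes with a change past the test that also carried a searched motif, and for the pair of Ugt2b genes with the largest liver differences. They are the 250 bases before the annotated start in RefSeq's mouse assembly GRCm38.p6, read 5′ to 3′ on the gene's own strand, with the match in capitals. Mgst1 has 2 annotated starts and is shown for chr6:138140277-138140526 on the plus strand, where the capitals are the antioxidant response element core TGACNNNGC on the opposite strand. The window of its other start held no match to that core. Mgst3 (chr1:167393842-167394091, minus strand) and Gstp1 (chr19:4037913-4038162, minus strand) are shown with the xenobiotic response element core GCGTG. Ugt2b38 (chr5:87424204-87424453, minus strand) and Ugt2b37 (chr5:87254789-87255038, minus strand) are shown with the forkhead core TGTTTAC on the opposite strand.
Mgst1: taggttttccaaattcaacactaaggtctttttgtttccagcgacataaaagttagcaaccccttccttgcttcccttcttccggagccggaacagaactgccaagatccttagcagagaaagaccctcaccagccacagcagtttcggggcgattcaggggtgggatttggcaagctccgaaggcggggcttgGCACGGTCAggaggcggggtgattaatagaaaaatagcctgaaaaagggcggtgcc
Mgst3: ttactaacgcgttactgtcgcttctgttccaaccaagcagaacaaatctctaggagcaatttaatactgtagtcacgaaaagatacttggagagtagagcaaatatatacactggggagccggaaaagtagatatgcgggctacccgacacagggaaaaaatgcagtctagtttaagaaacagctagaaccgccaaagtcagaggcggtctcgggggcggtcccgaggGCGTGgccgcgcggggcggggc
Gstp1: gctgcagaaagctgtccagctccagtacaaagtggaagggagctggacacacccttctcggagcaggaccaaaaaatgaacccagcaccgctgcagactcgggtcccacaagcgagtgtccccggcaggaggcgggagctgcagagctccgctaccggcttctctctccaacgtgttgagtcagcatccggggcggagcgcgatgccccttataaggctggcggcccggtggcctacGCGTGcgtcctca
Ugt2b38: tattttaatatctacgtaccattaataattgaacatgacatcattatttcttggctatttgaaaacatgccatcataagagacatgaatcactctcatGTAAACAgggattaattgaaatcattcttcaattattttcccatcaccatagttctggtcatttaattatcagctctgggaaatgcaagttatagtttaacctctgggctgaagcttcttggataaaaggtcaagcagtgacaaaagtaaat
Ugt2b37: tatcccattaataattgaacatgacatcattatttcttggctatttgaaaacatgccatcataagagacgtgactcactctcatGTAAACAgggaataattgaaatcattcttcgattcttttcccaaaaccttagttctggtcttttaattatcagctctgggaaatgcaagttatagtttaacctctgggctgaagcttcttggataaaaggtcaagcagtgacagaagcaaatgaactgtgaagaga
The Ugt2b38 and Ugt2b37 windows share a run of 82 identical bases.

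Both strands of all 32851 promoter windows were searched, of which 52 belong to 41 of the 44 genes. Gsta4, Gstt2 and Sult4a1 had no window and could not be searched. The core TGACNNNGC was in 10.2% of all windows and in those of Gsta3, Gstm7 and Mgst1. TGTTTAC was in 3.17% of all windows and in those of Ugt2b35, Ugt2b37 and Ugt2b38. GTTAAT, part of the site of the factor HNF1, was in 6.43% of all windows and in those of 7 of the genes, Ugt2a3 and Ugt3a1 among them. GCGTG was in 28.2% of all windows and likewise in those of 7 genes, with 8 windows of the 52 (15.4%). None of the motifs contains another, and a match is a description of these windows only.

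Both tissues carried their defining transcripts. The 12 hepatocyte genes summed to 76600 to 84300 linear units in haloperidol livers and 77500 to 81200 in placebo livers. Snap25, a synaptic protein gene, was at 12.79 ± 0.047 in haloperidol brains and 12.80 ± 0.062 in placebo brains (SD, n = 10 each). Haloperidol brain 4T stood apart in carrying liver transcripts: its albumin (Alb) value was 11.11, against at most 4.45 in the other haloperidol brains and 4.07 to 4.51 in placebo brains. Arrays within a group correlated at 0.979 to 0.997. The median over all probes was 6.20 ± 0.072 in haloperidol brains and 6.33 ± 0.044 in placebo brains, and 4.89 ± 0.090 in haloperidol livers and 4.80 ± 0.082 in placebo livers. Tissues appeared to have been normalized apart, so levels were compared within a tissue only.

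In liver, no conjugating enzyme gene passed the test. Of the 44 genes, 32 remained after the 33.3% of genes with the lowest liver means were left out (9 UGT, 17 GST and 6 SULT). limma called 0 of them at an adjusted p under 0.05, and 0% of the 12547 genes tested in liver. At an unadjusted p under 0.05, 11 of the 32 were lower and 1 was higher with haloperidol, beside 6.76% lower and 3.73% higher among all liver genes. The Wilcoxon test gave 9 genes at that level and likewise called 0. In sign, 27 of the 32 (84.4%) were lower, against 57.4% of all genes, with a median difference of -0.16 against -0.02 over all genes. No member's groups were free of overlap in liver, where 0.00797% of all genes were lower with haloperidol without overlap. Members share arrays, chromosomal clusters and probe sequence, so these counts describe the list and are no test of it.

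The UGT genes were the family in which every tested member had a lower haloperidol mean. All 9 were tested, with differences between -0.74 and -0.10 and a median of -0.17, and 4 of them had an unadjusted p under 0.05. Ugt2b37 spanned 5.36 to 6.68 in haloperidol livers with a median of 6.17, against 6.07 to 8.12 in placebo livers with a median of 6.65. All 9 haloperidol livers lay under the placebo mean of 6.90 ± 0.728, although the groups overlapped. Its difference was -0.74 (SE 0.248, limma adjusted p = 0.389). Ugt2b38 lay between 8.61 and 9.41 in haloperidol livers (median 9.15), against 8.81 to 10.00 in placebo livers (median 9.52). Its mean was 9.08 ± 0.254 with haloperidol and 9.53 ± 0.369 with placebo, a difference of -0.44 (SE 0.139, adjusted p = 0.367).

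Ugt2b35 was at 9.35 to 10.49 in haloperidol livers (median 10.31) and 10.10 to 11.05 in placebo livers (median 10.54), a difference of -0.35 (limma adjusted p = 0.411). Ugt2b1 was at 10.81 to 11.57 in haloperidol livers (median 11.41) and 11.41 to 11.86 in placebo livers (median 11.70), a difference of -0.29 (adjusted p = 0.380). In both genes every haloperidol liver was below the placebo mean while the ranges overlapped. The other 5 differed by less: Ugt2b5 by -0.17, Ugt2a3 by -0.15, Ugt3a1 by -0.14, Ugt2b36 by -0.12 and Ugt2b34 by -0.10, with limma adjusted p-values of 0.503 to 0.740. Ugt3a1, whose human counterpart uses UDP-N-acetylglucosamine in place of UDP-glucuronate, had 4 of 9 haloperidol livers above the placebo mean.

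**Figure D1:**
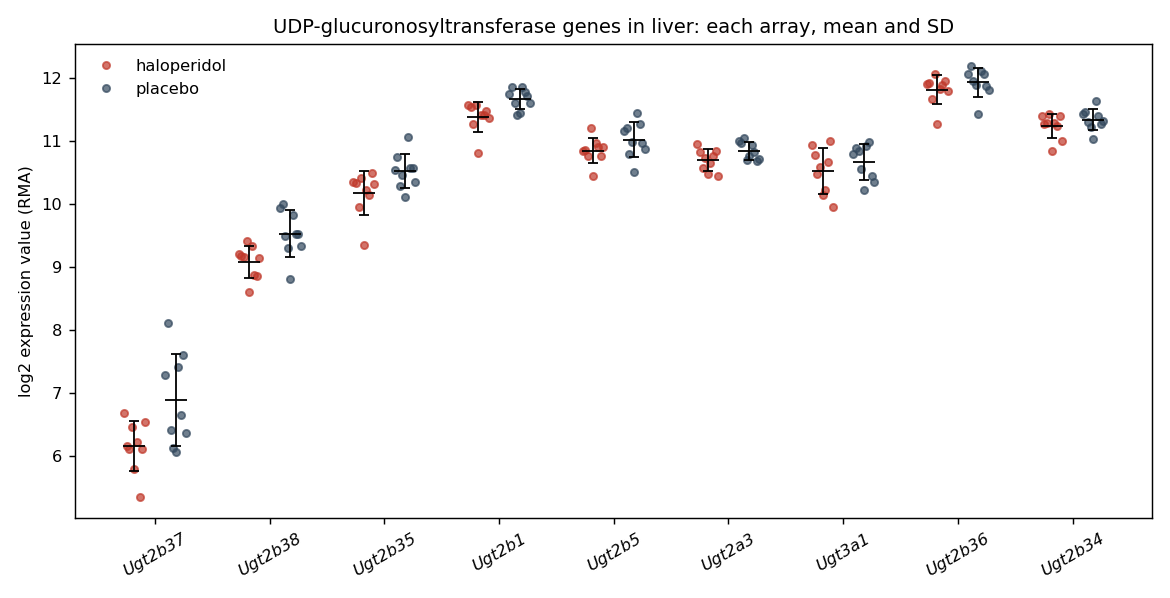
Log2 expression values of the 9 UGT genes in liver, 1 point per array with haloperidol (9 arrays) left of placebo (9 arrays), horizontal lines for the mean and bars for the SD. The haloperidol mean is the lower one for each gene and the groups overlap for each, from a difference of -0.74 for Ugt2b37 to -0.10 for Ugt2b34.

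UGT genes moved together from liver to liver within the groups. Deviations from the group means correlated between genes with a median Pearson r of 0.69 over 36 pairs (range 0.24 to 0.89, 18 livers), the highest for Ugt2b1 with Ugt2b35. These genes share arrays and lie, apart from Ugt3a1, in 1 cluster, so r is given with no p. The median r was 0.19 over 136 GST pairs and 0.006 over 15 SULT pairs. Haloperidol liver 2T had the lowest value of all 18 livers for 6 of the 9 UGT genes. Set against the placebo means, the median over UGT genes was between -0.66 in haloperidol 2T and -0.03 among haloperidol livers (median -0.12), and between -0.45 in placebo 3L and 0.30 in placebo 3N among placebo livers (median -0.04). Without haloperidol 2T the difference was -0.69 for Ugt2b37, -0.38 for Ugt2b38, -0.24 for Ugt2b35 and -0.22 for Ugt2b1, and limma still called none of them.

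**Figure D2:**
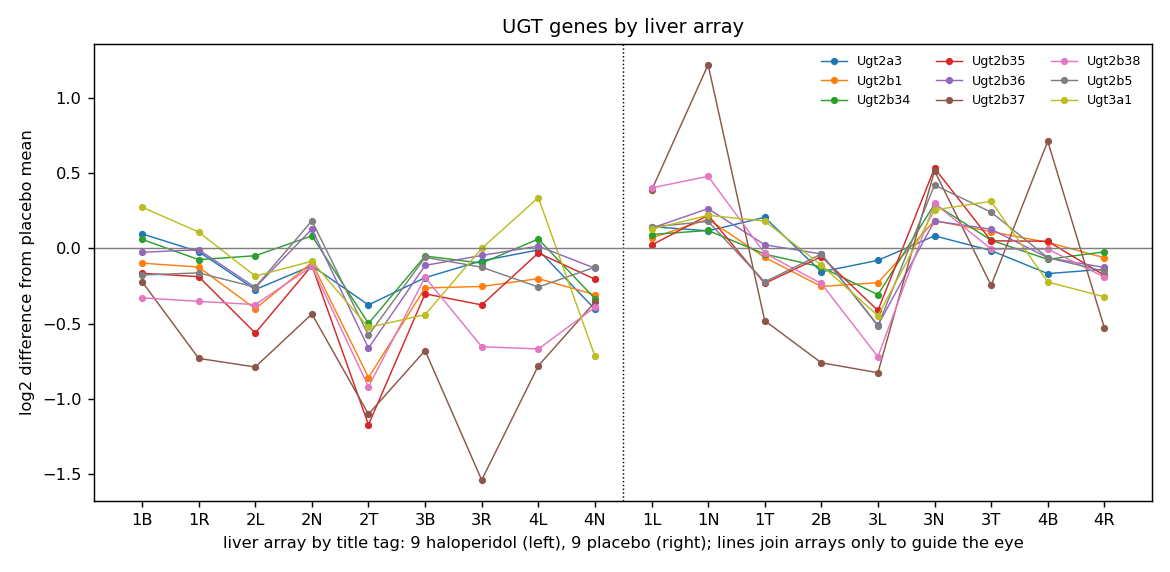
Difference of each UGT gene from its placebo mean (log2) in every liver, with the 9 haloperidol livers left of the dotted line and the 9 placebo livers right of it, and lines that only guide the eye. Haloperidol 2T and placebo 3L are low for most genes at once, and Ugt2b37 swings most widely.

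Genes known to differ between male and female mouse liver are given beside the UGT values. The 7 genes higher in male liver (among them Cyp4a12a, Hsd3b5 and Mup20) summed to 16600 to 23500 linear units in haloperidol livers, lowest in 2T, and to 17900 to 26600 in placebo livers, lowest in 3L. The 4 measured genes higher in female liver summed to 64.5 to 289 in haloperidol livers and to 88.9 to 234 in placebo livers. Their highest sum was that of haloperidol 2T. Haloperidol 1B, where the UGT median was at -0.10, was at 267, and placebo 3L was at 106, with a placebo median of 117. Among haloperidol livers Cyp2b9 was highest in 2T (7.68), and Cyp17a1 and Acot3 were highest in 1B (6.95 and 6.97). Within the groups, UGT deviations correlated with those of the summed male list over 18 livers, with Pearson r from 0.401 (Ugt2a3) to 0.844 (Ugt2b36). Without placebo 3L and haloperidol 2T, r was 0.211 for Ugt2a3 and 0.488 for Ugt2b36. In whole tissue, fewer cells of a type and less RNA per cell cannot be told apart. The part of these lists in the UGT differences between haloperidol and placebo was not tested.

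Among liver GST genes, 15 of 17 had a lower haloperidol mean, 6 of them at an unadjusted p under 0.05, and 1 was higher at that level. The mu class, cytosolic transferases encoded side by side on chromosome 3, was lower in sign for all 6 genes with a median of -0.22. Gstm2 spanned 7.98 to 8.65 in haloperidol livers (median 8.41), against 8.49 to 8.99 in placebo livers (median 8.65). All 9 haloperidol livers were below the placebo mean and 8 were below every placebo liver. Its difference was -0.35 (SE 0.090, limma adjusted p = 0.334). Gstm4 spanned 9.70 to 10.62 in haloperidol livers (median 10.09) and 10.23 to 10.67 in placebo livers (median 10.48), with 7 haloperidol livers below all placebo livers and a difference of -0.34 (adjusted p = 0.367). Gstm3, Gstm6 and Gstm7 differed by -0.23, -0.22 and -0.21, and Gstm1 by -0.04. Gstm3, the only one of the 44 genes with another probe, read -0.46 in liver on that probe. Values of single Ugt2b and Gstm genes are uncertain to the extent that probes of such paralogs read each other's transcripts, which was not tested.

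Gstt2, a theta class transferase, went the other way in liver. It spanned 8.001 to 8.85 in haloperidol livers (median 8.30), against 7.71 to 8.36 in placebo livers (median 7.996), with 8 of 9 haloperidol livers above the placebo mean. The difference was 0.36 (SE 0.112, unadjusted p = 0.0046, limma adjusted p = 0.367). Its neighbours on chromosome 10, Gstt1 and Gstt3, differed by -0.09 and -0.27. Gstk1, the mitochondrial and peroxisomal kappa class gene, differed by -0.16 and Gstp1, the pi class gene, by -0.14. Gsta4, which conjugates the lipid peroxidation product 4-hydroxynonenal, differed by -0.21 with a wide spread: it reached from 8.73 to 9.92 in haloperidol livers and from 9.48 to 10.42 in placebo livers. Gsta3 and Mgst1 varied little, with differences of 0.008 and -0.03 and a within-group SD of 0.063 and 0.064, against a median SD of 0.138 among genes of like mean.

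SULT genes were split in liver, with 3 of the 6 tested lower and 3 higher in sign and a median of -0.06. Sult5a1, a family member of little known function, spanned 5.43 to 7.13 in haloperidol livers (median 6.54) and 6.29 to 7.76 in placebo livers (median 6.84). Its difference of -0.53 (SE 0.238, limma adjusted p = 0.447) came with one of the widest within-group spreads for a gene of its level, an SD of 0.564 against a median of 0.224. Sult1d1, which sulfates catecholamines in mice, was at 9.02 to 10.43 in haloperidol livers and 9.46 to 10.65 in placebo livers, a difference of -0.33 (adjusted p = 0.539). Sult1b1, a sulfotransferase for thyroid hormones, differed by -0.21. Sult1a1, the phenol sulfotransferase, Sult1c2 and Sult2a8, a bile acid sulfotransferase of mouse liver, differed by 0.13, 0.18 and 0.08. The 12 genes left out in liver for low values were Gsto2, Gstt4, Mgst2 and the SULT genes Sult1c1, Sult1e1, Sult2a6, Sult2b1, Sult3a1, Sult3a2, Sult4a1, Sult6b1 and Sult6b2.

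Kupffer cell transcripts stood beside these liver differences. Of 8 such genes 0 were called, but 6 were lower at an unadjusted p under 0.05, where 6.76% of all liver genes were lower and 3.73% higher, with a median of -0.34. Their sum was 1680 to 2600 in haloperidol livers and 1880 to 3170 in placebo livers, and no gene of this list has a value of 0 on the RMA scale. Their part in the differences was not tested.

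In brain, 19 of the 44 genes were tested, 16 GST and 3 SULT, and 9 GST genes rose while none fell at an adjusted p under 0.05. In brain 30.4% of all 12547 genes were called, of which 15.2% of all rose and 15.2% fell, so the 9 of 19 are to be read against a common call. At an unadjusted p under 0.05, 13 of the 19 were higher and 0 lower, beside 20.8% higher and 23.2% lower among all brain genes. All 19 had a positive sign, against 46.0% of all genes, with a median of 0.31 against -0.02, but with the array median as a covariate the medians were 0.01 and -0.04 and signs turned. The groups overlapped for all 19, and in brain 0.0399% of all genes were higher and 0.0638% lower with haloperidol without overlap.

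Over all 20 brains, the membrane-bound enzymes Mgst3 and Mgst1 had the largest rises of the 9, while without haloperidol 4T the rise of Gsta4 (0.64) exceeded that of Mgst1 (0.60). Mgst3, a microsomal transferase with peroxidase activity, spanned 8.93 to 10.49 in haloperidol brains (median 9.90), against 8.74 to 9.57 in placebo brains (median 9.06). Haloperidol brains averaged 9.79 ± 0.504 and placebo brains 9.08 ± 0.253 (SD, n = 10 each), a rise of 0.71 (SE 0.161, limma adjusted p = 0.00511) or 1.64-fold. Mgst1, which reduces lipid hydroperoxides, spanned 6.87 to 8.29 in haloperidol brains (median 7.49) and 6.45 to 7.06 in placebo brains (median 6.88). Its rise was 0.69 (SE 0.143, adjusted p = 0.00437) or 1.61-fold. All 10 haloperidol brains exceeded the placebo mean of Mgst1 and 9 of them exceeded every placebo brain, while for Mgst3 these counts were 9 and 6. The highest Mgst1 value was that of 4T, the brain with liver transcripts, and without it Mgst1 still passed (adjusted p = 0.00479).

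Gsta4 rose in brain by 0.61 (SE 0.120, limma adjusted p = 0.00424). It spanned 9.38 to 10.34 in haloperidol brains (median 10.00), against 8.72 to 9.59 in placebo brains (median 9.33). All 10 haloperidol brains were above the placebo mean and 8 above every placebo brain. Gstk1 was at 8.98 to 9.96 in haloperidol brains (median 9.55) and 8.67 to 9.47 in placebo brains (median 9.22), a rise of 0.41 (adjusted p = 0.0155). Gsta4 and Gstk1 had the closest match of deviations among the 16 GST genes, with r = 0.89 over 20 brains. The median r over all 120 GST pairs was 0.56.

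Gstp1, the pi class enzyme of glia and many other cells, spanned 10.29 to 11.16 in haloperidol brains (median 10.86) and 10.34 to 10.58 in placebo brains (median 10.45). Its rise was 0.36 (SE 0.085, limma adjusted p = 0.00569), and the haloperidol group was the more variable, with an SD of 0.268 against 0.080 with placebo. One haloperidol brain, 1R, lay below all placebo brains while 8 lay above all of them. Gsto1, an omega class enzyme with thioltransferase activity, spanned 7.77 to 8.67 in haloperidol brains (median 8.17) and 7.66 to 8.17 in placebo brains (median 7.85), a rise of 0.31 (adjusted p = 0.0177).

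In the theta class, Gstt1 spanned 7.96 to 8.73 in haloperidol brains (median 8.28), against 7.45 to 8.23 in placebo brains (median 7.94). It rose by 0.40 (SE 0.105, limma adjusted p = 0.00934), and all 10 haloperidol brains were above the placebo mean. Gstt2 spanned 5.92 to 6.88 in haloperidol brains (median 6.27) and 5.85 to 6.16 in placebo brains (median 5.99), a rise of 0.31 (adjusted p = 0.0194). Gstt3 had a difference of 0.21 that did not pass (adjusted p = 0.0647).

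Of the 6 mu class genes only Gstm4 passed in brain, and narrowly. It spanned 7.74 to 8.71 in haloperidol brains (median 8.24) and 7.47 to 8.35 in placebo brains (median 8.06), a rise of 0.32 (SE 0.118, limma adjusted p = 0.0435). That call was lost in 10 of 20 fits with a single array omitted (placebo 1L, 1N, 1T, 2B and 3N, haloperidol 2T, 3B, 3R, 4N and 4T), with adjusted p-values of 0.0524 to 0.0884. Gstm7, Gstm2 and Gstm6 had differences of 0.26, 0.34 and 0.34 with adjusted p-values of 0.0502, 0.065 and 0.078. Gstm1 and Gstm3 differed by 0.13 and 0.08. No test of a difference between mu genes was made.

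**Figure D3:**
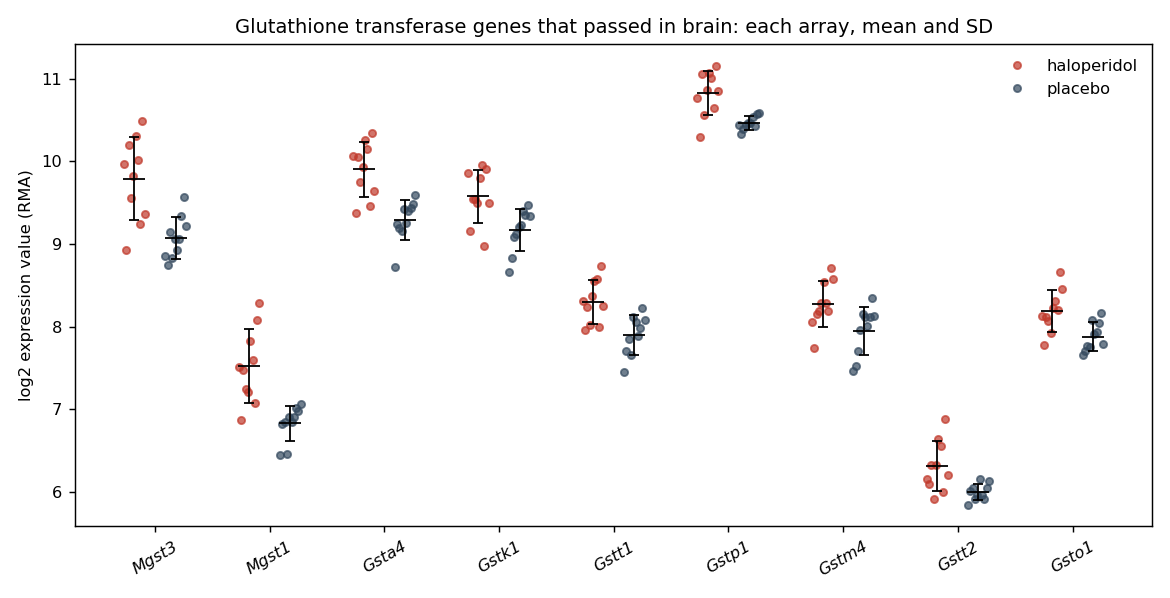
Log2 expression values in brain of the 9 GST genes that passed, 1 point per array with haloperidol (10 arrays) left of placebo (10 arrays), horizontal lines for the mean and bars for the SD. Each haloperidol mean is the higher one, by 0.71 for Mgst3 to 0.31 for Gsto1, and the groups overlap for every gene.

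Single arrays carried many of the extremes. Haloperidol brain 4N was the highest of the haloperidol group for 10 of the 19 genes and 1R the lowest for 11, while placebo 1L was the lowest of the placebo group for 10. Pituitary genes summed to 125 to 2050 in haloperidol brains and to 130 to 3620 in placebo brains, highest in 1L. Without brains 4N, 4T and 1L, 5 genes still rose (Mgst3 by 0.66, Gsta4 by 0.53, Mgst1 by 0.48, Gstp1 by 0.32 and Gstt1 by 0.30), and Gstk1, Gsto1, Gstt2 and Gstm4 no longer passed. In that fit 1184 of all 12547 genes rose and 1334 fell. With the array median as a covariate, none of the 9 passed, with changes of -0.13 for Gstm4 and -0.06 for Gsto1 and of 0.03 to 0.28 for the others. That covariate, which differed between the groups, left 0 of all 12547 genes called by limma, with 550 at an unadjusted p under 0.05.

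Markers of other cell types are given here beside the share over all brain genes, of which 15.2% rose and 15.2% fell. Among choroid plexus genes 2 of 6 rose (Kcne2 and Calml4), with list sums of 607 to 980 in haloperidol brains and 380 to 760 in placebo brains. Of 3 oligodendrocyte genes tested, 2 rose (Mal and Opalin), with sums of 2000 to 3200 in haloperidol brains and 1640 to 2900 in placebo brains. The complement genes C1qa and C1qb rose among 4 tested macrophage genes, with list sums of 1250 to 2030 in haloperidol brains and 990 to 1480 in placebo brains. Among 6 meningeal genes Dcn rose, with sums of 1860 to 3420 in haloperidol brains and 1570 to 2280 in placebo brains. Of 5 endothelial genes Emcn rose, with sums of 1870 to 2550 in haloperidol brains and 1500 to 2420 in placebo brains. Of 5 astrocyte genes limma called 0, with 0 at an unadjusted p under 0.05. Of 5 neuron genes limma also called 0, with 2 lower at an unadjusted p under 0.05 and sums of 19100 to 21500 in haloperidol brains and 19400 to 22200 in placebo brains. No gene of these lists has a value of 0 on the RMA scale, and the part of these cell types in the GST rises was not tested.

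None of the 3 SULT genes tested in brain passed. Sult4a1, a sulfotransferase found mainly in neurons, spanned 10.34 to 10.81 in haloperidol brains (median 10.62) and 9.90 to 10.79 in placebo brains (median 10.55). Its difference was 0.07 (limma adjusted p = 0.571). Sult2b1, which sulfates cholesterol and pregnenolone, differed by 0.08 (adjusted p = 0.513), and Sult1a1 by 0.02 (adjusted p = 0.876). The groups overlapped for each of these genes, and none of the 3 was at an unadjusted p under 0.05.

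All 9 UGT genes and 16 other genes of the families had low values in brain and were left out of the test above. Of these 25, Sult5a1 alone had a lower haloperidol mean (-0.09), so the positive sign of the tested genes was shared by genes with low values. With no filter on low values, limma called 3 of these 25 genes in brain, all higher, where 9.99% of all 18820 genes were higher and 8.84% lower. Sult1c2 was at 3.75 to 4.91 in haloperidol brains (median 4.17), against 3.20 to 4.15 in placebo brains (median 3.74), a rise of 0.48 (limma adjusted p = 0.0184). Sult1e1, the estrogen sulfotransferase, rose by 0.22 (adjusted p = 0.0238) and Gsto2 by 0.28 (adjusted p = 0.0433). All 10 haloperidol brains lay above the placebo mean of both SULT genes, with overlap, and whether values this low are above background was not tested. Gstm4 did not pass with no filter (adjusted p = 0.0593), which made 11 genes called in place of 9. The 3 calls held without haloperidol 4T, and Sult3a2 was called as well (0.22, adjusted p = 0.049).

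Of the 44 genes, 10 had their highest brain value in haloperidol 4T, namely 7 UGT, 2 GST and 1 SULT gene. Ugt2b36 was at 5.01 in that brain, Ugt2b1 at 4.80 and Sult2a8 at 4.71. In placebo brains those 3 genes reached at most 3.48, 3.64 and 3.26. Gsta3 was at 7.08 in 4T, against 5.50 to 6.03 in placebo brains. The hepatocyte list sum in haloperidol brains was 4260 in 4T and reached down to 278, against 265 to 298 in placebo brains. Without 4T the brain difference of Gsta3 was -0.12 (limma adjusted p = 0.197) in place of 0.02, so that 1 of the 19 signs turned.

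**Figure D4:**
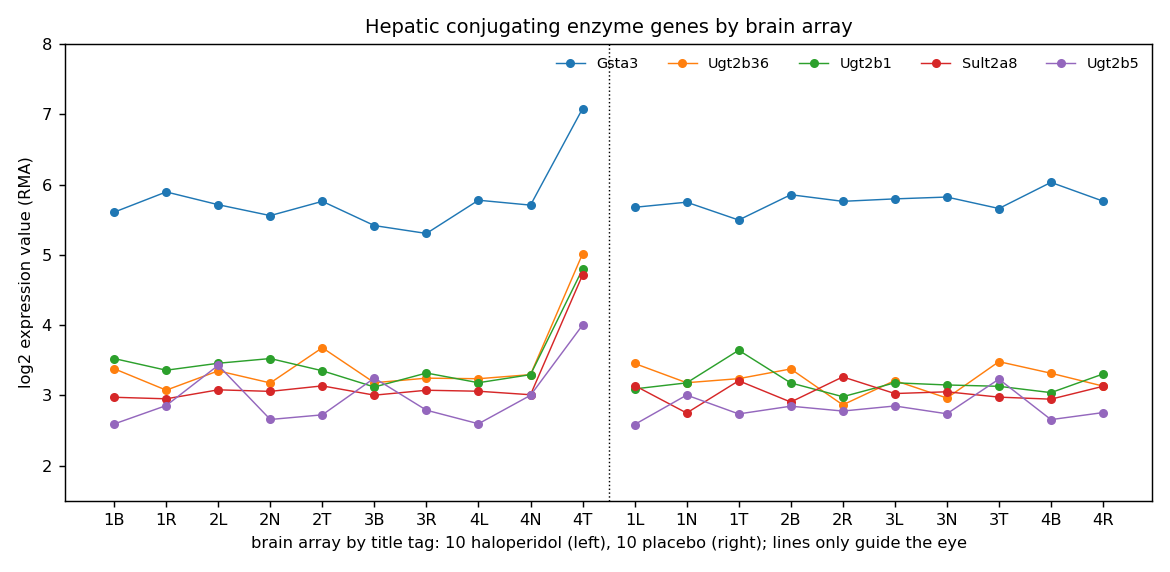
Log2 expression values of 5 genes of hepatic conjugation in every brain array, with 10 haloperidol brains left of the dotted line and 10 placebo brains right of it, and lines that only guide the eye. Each gene peaks in haloperidol 4T, with 7.08 for Gsta3 and 5.01 for Ugt2b36, and varies far less over the other brains.

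By limma's test the haloperidol effect itself differed between liver and brain for most GST genes. This was tested as the liver change minus the brain change in 1 fit of all 38 arrays, over the 10869 genes kept in both tissues. Of 17 genes of the families tested, 12 were lower in liver than in brain and 0 higher, where 23% of all genes were called, 13.9% lower and 9.16% higher. At an unadjusted p under 0.05 the number was 13 lower, beside 20.9% of all genes lower and 15.6% higher. The largest difference among the 17 was that of Gsta4, at -0.83 (SE 0.196, limma adjusted p = 0.00368), from a liver change of -0.21 and a brain change of 0.61. Mgst3 and Mgst1, with liver changes of -0.03 each and brain changes of 0.71 and 0.69, differed by -0.75 and -0.72 (adjusted p = 0.019 and 0.00299). Gstm2 and Gstm4 were on opposite sides of 0 in the tissues, and their effects differed by -0.69 (adjusted p = 0.005) and -0.66 (adjusted p = 0.0042). Gstp1 differed by -0.50, with the smallest adjusted p of the set at 0.0027. The array median as a covariate, under which no brain rise of these genes passed, was not tried for the difference.

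Gstk1, Gstm6, Gstt1, Gstt3, Gstm7 and Gsto1 made up the rest, with differences of -0.57 to -0.38 and limma adjusted p-values of 0.00581 to 0.0442. The call for Gsto1 was lost in 18 of 38 fits with a single array omitted, with adjusted p-values of 0.0506 to 0.0816, and that for Gstt3 in 2, those without haloperidol brain 3B or 4N. The arrays behind the 18 were, in brain, placebo 1L, 1N, 1T, 2B, 3L and 4R and haloperidol 3B, 3R, 4N and 4T, and in liver, haloperidol 1B, 1R, 3B, 3R and 4N and placebo 1L, 1T and 3N. Gstt2 was higher in sign in both tissues, with a difference of 0.05 (adjusted p = 0.853). Sult1a1 at 0.10, Gsta3 at -0.01, Gstm1 at -0.16 and Gstm3 at -0.30 did not pass either. Gstm3 was close to the limit (limma adjusted p = 0.0548) and passed in 8 of 38 fits with a single array omitted. It also passed with the mean of its probes, with array weights and with the array median subtracted. Without brains 4N, 4T and 1L, 9 of the 12 calls were made, and Gsto1, Gstm6 (adjusted p = 0.0968) and Gstt3 (adjusted p = 0.0866) did not pass. In that fit 988 of all 10869 genes were lower in liver and 580 higher.

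UGT genes entered the test of the difference only with no filter on low values, where 14 of the 44 genes were called, all lower in liver than in brain, and 7.4% of all 18820 genes were lower and 4.81% higher. Ugt2b37 differed by -0.85 (limma adjusted p = 0.0282), Ugt2b1 by -0.59 (adjusted p = 0.0283) and Ugt2b38 by -0.51 (adjusted p = 0.0323). Their brain means were 3.77, 3.49 and 3.98 with haloperidol and 3.66, 3.19 and 3.91 with placebo. These lie below the brain filter limit of 5.52, and whether they are above background was not tested. Ugt2b1 was among the genes highest in haloperidol brain 4T, and without that brain its difference was -0.45 (adjusted p = 0.0139), with -0.89 for Ugt2b37 and -0.50 for Ugt2b38. Ugt2b35 did not pass with that brain (-0.56, adjusted p = 0.0591) or without it (-0.42, adjusted p = 0.0623). Without that brain, limma called no brain change of Ugt2b1, Ugt2b37 or Ugt2b38 (adjusted p-values of 0.135 to 0.67), and their liver changes were not called with no filter (0.484 to 0.493). Gsto1 was not called with no filter (adjusted p = 0.0669).

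**Figure D5:**
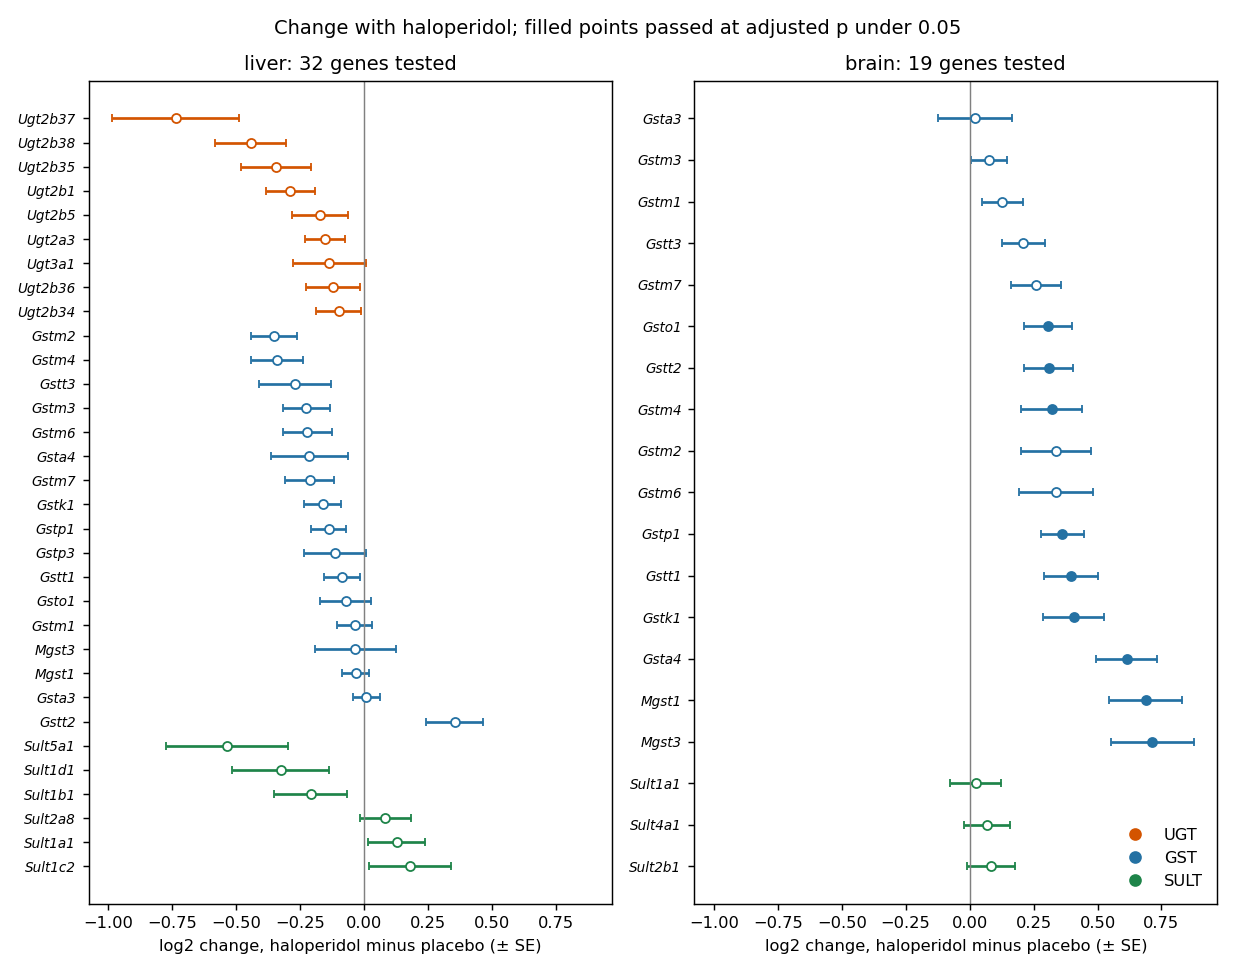
Change with haloperidol (log2, haloperidol minus placebo) for every gene tested, 32 in liver and 19 in brain, with bars of 1 SE to either side and filled points where the adjusted p was under 0.05. All UGT points in liver lie left of 0 and are open, and in brain all 19 points lie right of 0 with 9 filled.

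Genes that supply, undo or flank conjugation were followed as lists, to be read against the 15.2% of all brain genes that rose and the 15.2% that fell. In brain, 3 of 3 tested carbonyl reduction genes rose: Cbr1, a carbonyl reductase, by 0.71 (limma adjusted p = 0.00423), Cbr3 by 0.63 (adjusted p = 0.00569) and Hsd11b1, which also reduces glucocorticoids, by 0.59 (adjusted p = 0.0166). Cbr1 spanned 8.74 to 10.00 in haloperidol brains (median 9.44), against 8.36 to 8.91 in placebo brains (median 8.66). Haloperidol 4N held the highest value of Cbr1, Cbr3 and Hsd11b1. With the array median as a covariate limma called 0 of all 12547 brain genes, so none of the brain changes in these lists passed under it. Of 6 other conjugation and detoxification genes tested, 5 rose, namely Inmt and Nnmt, both N-methyltransferases, by 0.67 and 0.45, Nqo1, the quinone reductase, by 0.65, Tpmt, a thiol methyltransferase, by 0.32 and Ephx2, an epoxide hydrolase, by 0.25. Of the 7 glutathione synthesis and recycling genes tested in brain, 0 were called by limma and 1 was higher at an unadjusted p under 0.05. In the supply of UDP-glucuronate, Ugp2, which makes UDP-glucose, rose by 0.54, and the transporters Slc35d1 and Slc35b1 fell by 0.22 and by 0.20. Of 6 sulfate activation genes 1 rose, the PAPS transporter Slc35b2, by 0.42. Of 4 export genes tested Abcc1 fell by 0.26, and of 7 regulators tested Arnt, the partner of the aryl hydrocarbon receptor, fell by 0.45. Of 2 deconjugation genes limma called 0, with 0 at an unadjusted p under 0.05.

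In liver, limma called 0 of the 51 genes tested of these 8 lists, with 10 lower and 0 higher at an unadjusted p under 0.05. The smallest unadjusted p of each list belonged to Nnmt (-0.69), Gusb, the enzyme that removes glucuronate (-0.25), Abcb1b, an efflux transporter (-0.36), Papss1, which makes PAPS (-0.25), Slc35b1 (-0.34), Ggct of glutathione turnover (-0.25), Cbr1 (-0.14) and Arnt (0.14), with limma adjusted p-values of 0.367 to 0.513. Ugdh, the enzyme that makes UDP-glucuronate, was at 10.77 to 11.43 in haloperidol livers (median 11.19) and 11.13 to 11.54 in placebo livers (median 11.38), a difference of -0.20 (unadjusted p = 0.0248). At that unadjusted level 10.5% of all liver genes lay, 6.76% of all lower and 3.73% higher. Nnmt spanned 8.66 to 10.20 in haloperidol livers and 9.23 to 10.58 in placebo livers, so its groups overlapped.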

How the data were processed

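Gene expression was measured on Affymetrix arrays in liver (18) and whole brain (20). The deposited values are log2 expression values, for which the submitters' processing notes name RMA and Affymetrix Expression Console without versions. RMA corrects background, gives arrays a common distribution and summarises probes, so a change of total RNA is not visible. No read depth exists for arrays, and their number limits the precision. Sorted values of each array lay within 0.234 (liver) and 0.208 (brain) of the tissue's mean distribution, while the tissues differed by up to 1.42.

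The table held 35556 probes and no empty cell. The platform annotation held by GEO, possibly dated, gave 1 symbol to 21218, several to 1881 and none to 12457. Of the probes with 1 symbol, 21185 matched RefSeq by Entrez ID with 0 symbols changed, and all 44 genes described here matched. Genes in the lowest 33.3% by mean over a tissue's arrays were left out (below 3.92 in liver and 5.52 in brain). Haloperidol was compared with placebo with limma 3.58.1 (R 4.3.3, lmFit and eBayes, two-sided), with Benjamini-Hochberg adjustment over all genes tested and a limit of 0.05. Liver and brain effects were compared by a contrast of 4 groups. List sums add values taken off the log scale. The fits were tested on simulated data.

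The members and lists were chosen with earlier results of these data known. Named were all members past the threshold, the 12 of smallest p in liver, the 3 of highest mean per family and tissue and the 3 of largest within-group SD per tissue, and of the pathway lists the members past the threshold and, in liver, the smallest p of each list. Alternatives changed the filter, scaling, blocks by tag digit or letter, variance model, array weights, probe choice, arrays in the fit and test. Leaving out both the filter and haloperidol brain 4T was added after seeing the data. Deviations from the group means were correlated between brain and liver arrays that share a title tag. Same-tag correlations were -0.318 to 0.249, 5 of 18 were above 0.1 and 0 arrays matched their own tag best. Liver and brain of the same mouse need not deviate together, so this check cannot decide whether the tags pair samples. The reported fit of the difference left the tags unpaired, and an alternative fit took the title tag as a replicate block.

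Promoters came from RefSeq's table of assembly GRCm38.p6. The array's own genome build is not given in the sources used here. Protein sequences were not used here.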

Additional observations from a re-analysis of the deposited data

Results flagged for a closer look

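Among 86 gene and group combinations of named genes, 9 held an array far from the rest of its group by Dixon's criterion, where chance alone gives about 5%. In haloperidol liver 2T, 3 UGT genes lay far below the other haloperidol livers, with Ugt2b1 at 10.8, Ugt2b35 at 9.34 and Ugt2b36 at 11.26. Ugt2b36 was also far below its group in placebo liver 3L, at 11.42. Gstm1 was far below the other haloperidol livers in 1B, at 11.66, and Gsta4 far above the other placebo livers in 3N, at 10.42. In brain, Gstm3 was far above its group in haloperidol 1B, at 6.94. Gsta4 was far below its group in placebo 1L, at 8.72, and Sult4a1 in placebo 1N, at 9.9.

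The haloperidol effect differed between liver and brain by limma's test of the difference for 12 of 17 genes tested, all lower in liver. Among all 10869 genes tested, 13.9% were lower in liver and 9.16% higher. The log2 differences were -0.83 for Gsta4, -0.75 for Mgst3, -0.72 for Mgst1, -0.69 for Gstm2, -0.66 for Gstm4, -0.57 for Gstk1, -0.56 for Gstm6, -0.5 for Gstp1, -0.48 for Gstt1, -0.48 for Gstt3, -0.47 for Gstm7 and -0.38 for Gsto1.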

How the results depend on the processing

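In liver 0 members were called by limma under 12 other settings, the Wilcoxon test among them, and in 18 fits without 1 array. In brain 9 of 19 members rose as reported, 14 with each array's median subtracted, 0 with the array median as a covariate and 5 without brains 4N, 4T and 1L. Of all 12547 genes, 1911, 4088, 0 and 1184 rose in these fits. Without 1 array 8 to 13 members rose over 20 fits, where 2869 to 4817 of all genes were called in either direction. Under any setting, 0 members fell. Under the covariate the brain changes of Gstm4 and Gsto1, which had passed, were -0.132 and -0.0587, and among members that had not passed the sign turned for Gstm2 (-0.118), Gstm3 (-0.0586), Gstm6 (-0.213), Gstm7 (-0.0465), Sult2b1 (-0.172) and Sult4a1 (-0.203) in brain and Mgst3 (0.0561) in liver. Other changes of sign, all in members that had not passed, were those with the array median subtracted of Gstt2 (-0.177) and Sult1a1 (-0.118) in the difference and Sult2a8 in liver (-0.00317), with array weights of Sult4a1 in brain (-0.0311), with the tag letter as a block of Mgst3 in liver (0.00234) and without brains 4N, 4T and 1L of Sult2b1 in brain (-0.0021). Without 1 array the change was -0.0315 to 0.0602 for Sult1a1 and -0.00154 to 0.0982 for Sult4a1 in brain, -0.0519 to 0.0135 for Gstm1 and -0.111 to 0.0604 for Mgst3 in liver and -0.0127 to 0.109 for Gstt2 in the difference. The cause was not tested. Subtracting the array median shifted the median gene by 0.14 in brain and -0.09 in liver, and gave 4088 higher and 467 lower calls over all brain genes in place of 1911 and 1905. Gstm2, Gstm6, Gstm7 and Gstt3 passed in brain in 3 to 5 of the fits without 1 array. For the difference between tissues, 12 of 17 members were called, all lower in liver, and 10 to 13 over 38 fits without 1 array. The number was 9 without brains 4N, 4T and 1L, 14 with the array median subtracted and 13 with the mean of probes. Over all 10869 genes, 1506 were lower as reported, 988 without those brains and 4073 with the median subtracted. Without 1 array, 1924 to 3001 of all genes were called in either direction. With no filter, 14 of 44 members and 1392 of 18820 genes were lower. Leaving out haloperidol brain 4T as well (a setting chosen after seeing the data) gave 13 members and 1407 genes. The title tag as a replicate block gave 12 members and 1433 genes, and left every member's call as it was. The median same-tag correlation was 0.001. The array median as a covariate was not tried for the difference between tissues. Of the settings tried for single named members, 2031 kept direction and side of the threshold, 56 no longer passed, 39 newly passed and 25 changed sign. Signal over background was not given, which limits what the values of members with low signal can show.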
